A study of Mus musculus with 4 samples.

Results

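Noncoding RNA genes and pseudogenes made up 90 of the 1142 genes listed for miR-9 knockout tumours and control tumours. The 90 were chosen by annotation alone: every listed gene whose biotype was neither protein_coding nor an immunoglobulin or T cell receptor segment, apart from 1 noncoding gene not analysed here. They comprised 64 long noncoding RNA genes, 24 pseudogenes and 2 genes annotated as miRNA. They were compared between knockouts and controls by biotype, by copies of their sequence and by the nearest of the 1043 protein_coding rows of the same tables.

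The RNA-seq samples were 4 tumours from MMTV-PyMT females, 2 from animals with a miR-9 knockout (knockouts 1 and 2) and 2 from animals without it (controls 1 and 2). Both groups carried the MMTV-PyMT transgene, in which a mouse mammary tumour virus promoter, active mainly in mammary epithelium, drives the polyoma virus middle T oncogene, and both were of mixed C57BL/6 descent with littermates as controls. According to the labels, exon 1 of miR-9 was knocked out and the line was obtained in the heterozygous state (miR-9+/-). Whether the tumours came from heterozygous or homozygous animals, which of the 3 miR-9 genes was targeted, and how old the animals were is not known from the labels. Nothing in the labels says that samples of a group came from separate animals, so the p-values below measure only the spread between these samples.

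Long noncoding RNA genes are transcribed and often spliced like messenger RNA genes but carry no long reading frame. Some lie antisense to, or start back to back with, a coding gene, and some are processed to release the miRNAs or small nucleolar RNAs that they hold. Pseudogenes are copies of genes that have lost their function: processed ones arose from a messenger RNA copied back into the genome, unprocessed ones from duplicated DNA, and both can be so close to their parent gene that short reads cannot always be assigned between them.

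All values are read counts that the authors divided by 1 size factor per sample, and are called normalised counts here. Gene positions are on GRCm38, whose GENCODE M21 annotation gave 85 of the 90 genes the same coordinates as the tables. Relative depth was 1.11 in knockout 1 and 1.04 in knockout 2, and 0.998 in control 1 and 0.885 in control 2. No listed gene had group means less than 2.0-fold apart, and in the 90 genes they were at least 2.04-fold apart, so the tables are a list that the study selected on these samples. A gene that is absent from the list is therefore not shown to be unexpressed or unchanged. The selected list also touched cell type markers: of the fixed lists, 6 of 8 macrophage, 3 of 8 fibroblast and 5 of 10 luminal epithelial markers were listed and all were higher in the knockouts, while 8 of 12 skeletal muscle and 4 of 7 milk protein genes were listed and all were lower. Both listed adipocyte markers of 9 and both listed B and plasma cell markers of 8 were higher, and of 8 myoepithelial and smooth muscle markers 6 were higher and 1 lower. Summed luminal markers reached 19991 and 24098 in the knockouts, against 4609 and 7818 in the controls. Summed macrophage markers reached 35961 and 43072 in the knockouts, against 9683 and 16681 in the controls. Of the macrophage sums, Apoe alone held 28373 and 33805 in the knockouts, against 6562 and 11799 in the controls. The other listed macrophage markers were 2.01-fold (C1qc) to 2.43-fold (Mrc1) higher. Summed skeletal muscle markers were 73.2 and 44.1 in the knockouts, against 603 and 1031 in the controls. In bulk tumours, fewer cells of a type and less RNA per cell cannot be told apart, and the part of these markers in the results below was not tested.

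The transcript of a miR-9 locus itself was among the 90. None of the 6 symbols looked up for the miR-9 genes and their host transcripts was listed, but by position the Mir9-1 hairpin, at chr3:88215598-88215686 on the plus strand, lies inside the long intergenic gene Gm3764 at chr3:88206813-88229959 on the same strand. It starts 8785 bases from the start of Gm3764, in an intron of that gene: none of the exons of its 11 annotated transcripts covers it. Gm3764 had normalised counts of 0.904 and 3.83 in the knockouts, against 51.1 and 54.2 in the controls. Both knockouts were far below both controls, and Gm3764 was 22.2-fold lower (log2 change -4.14 ± 0.73, SE; limma adjusted p = 0.00326), or 13.7-fold to 58.3-fold with 1 sample left out. The host transcript of Mir9-1 was close to 0 in both samples labelled as knockouts. The overlap with Mir9-1 was noticed from its position after its value had been seen. A value per gene does not show which exons were lost, and neither mature miR-9 nor the Mir9-2 and Mir9-3 loci, on chromosomes 13 and 7, were measured in these tables. The nearest listed coding gene, Paqr6, 134625 bases away, moved the other way, with 758 and 739 in the knockouts, against 223 and 258 in the controls (log2 change 1.64 ± 0.31), a call that was lost with RLE factors computed from the listed genes (limma adjusted p = 0.130).

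The hairpin is shown because it is the miR-9 gene that lies in a member, with the 2 mature miRNAs in capitals (RefSeq, GRCm38.p6). Below it stand both mature miRNAs with the seed, bases 2 to 8, in capitals. The seed is the stretch by which a miRNA pairs with its targets.
Mir9-1 hairpin: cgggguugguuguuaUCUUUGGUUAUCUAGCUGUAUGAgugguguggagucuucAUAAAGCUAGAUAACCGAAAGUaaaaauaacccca
mmu-miR-9-5p: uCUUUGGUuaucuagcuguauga
mmu-miR-9-3p: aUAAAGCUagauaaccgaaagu

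Gm3764 was 1 of 9 members that held an annotated small RNA gene on their own strand. Of these 9 hosts, 5 were higher and 4 lower in the knockouts, beside 61.3% higher and 38.5% lower over all listed genes. A miRNA gene was held by 6 of them. The fixed list of small RNA host genes had 28 symbols, of which 4 were listed: Snhg18 was higher, and Snhg4, Mir17hg and Mirt1 were lower. Mirt1 is on that list by name, but it held no annotated small RNA gene on its strand and is not among the 9. Those of the 9 that are not on the fixed list were found by position after their values had been seen.

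**Figure D1:**
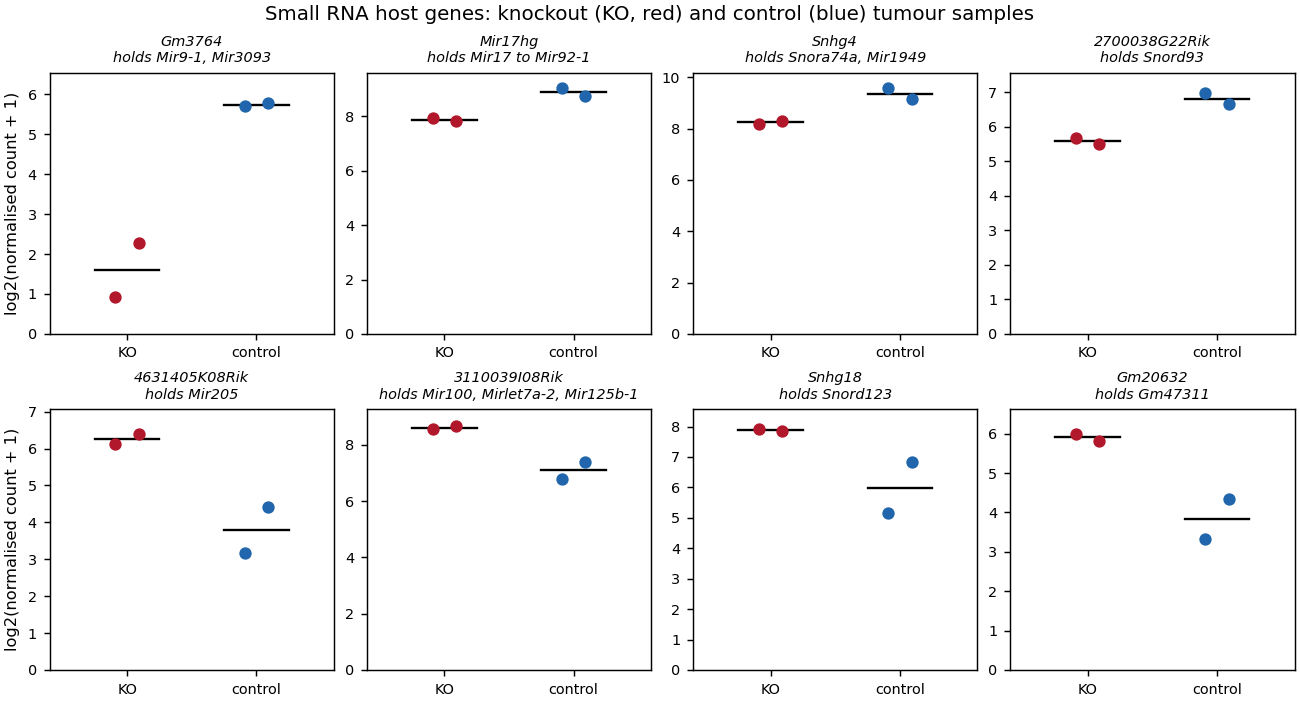
Normalised counts of 8 small RNA host genes, as log2(value + 1) on the y axis, in the 2 knockout samples (left, red) and the 2 control samples (right, blue), with the mean as a bar and each panel on its own scale from 0. The 4 hosts of the upper row, Gm3764 among them, were lower in both knockouts than in both controls, and the 4 of the lower row were higher.

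Mir17hg (chr14:115042879-115046727, plus strand), the host of the miR-17 to miR-92 cluster that is known as an oncogenic miRNA cluster induced by Myc, was lower in the knockouts. Its normalised counts were 242 and 227 in the knockouts, against 521 and 435 in the controls. This was the smallest change among the 90 genes, 2.04-fold lower (log2 change -1.02 ± 0.32; limma adjusted p = 0.0157), yet the groups did not overlap. The 6 hairpins inside Mir17hg lie in its exons and yield 11 mature miRNAs, of which 1 arm of each hairpin is shown with its seed in capitals. miR-17-5p and miR-20a-5p share a seed, as do miR-19a-3p and miR-19b-3p.
mmu-miR-17-5p: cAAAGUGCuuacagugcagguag
mmu-miR-20a-5p: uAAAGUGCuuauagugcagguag
mmu-miR-18a-5p: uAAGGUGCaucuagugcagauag
mmu-miR-19a-3p: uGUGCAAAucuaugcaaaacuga
mmu-miR-19b-3p: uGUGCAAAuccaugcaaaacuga
mmu-miR-92a-3p: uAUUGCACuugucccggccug

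Of the hosts of miRNA genes, 3 were higher. The gene 4631405K08Rik at chr1:193507238-193510174 on the minus strand holds Mir205, a miRNA of basal and stem-like mammary epithelium that is known to restrain epithelial-mesenchymal transition, in its exon. It had 68.7 and 83.4 in the knockouts, against 8.02 and 20.3 in the controls, which was 5.36-fold higher (log2 change 2.47 ± 0.59; limma adjusted p = 0.00769). The fold ran from 3.74-fold to 9.48-fold with 1 sample left out, because control 2 was well above control 1. The gene 3110039I08Rik at chr9:41327077-41716994 on the plus strand holds Mir100, Mirlet7a-2 and Mir125b-1 in its introns, a cluster that in human lies in the MIR100HG locus. It had 375 and 405 in the knockouts, against 110.2 and 168 in the controls, which was 2.80-fold higher (log2 change 1.51 ± 0.36; limma adjusted p = 0.00792). The groups did not overlap, and control 2 was the higher control. Gm20632, an antisense gene among the histone genes whose exon holds the predicted miRNA Gm47311, had 62.3 and 55.6 in the knockouts, against 9.02 and 19.2 in the controls (log2 change 2.07 ± 0.57). It was 4.18-fold higher, or 3.07-fold to 6.54-fold with 1 sample left out. No seed is shared among the 3 arms shown here, nor with miR-9.
mmu-miR-205-5p: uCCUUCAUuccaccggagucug
mmu-miR-100-5p: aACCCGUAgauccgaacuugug
mmu-miR-125b-5p: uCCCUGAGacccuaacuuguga

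The small nucleolar RNA hosts went both ways. Snhg4, the host of Snora74a, an RNA that guides pseudouridylation, had 287 and 314 in the knockouts, against 766 and 560.4 in the controls and was 2.20-fold lower (log2 change -1.12 ± 0.33; limma adjusted p = 0.0129). The gene 2700038G22Rik, whose intron holds Snord93, had 50.6 and 44.1 in the knockouts, against 125 and 99.4 in the controls and was 2.37-fold lower (log2 change -1.22 ± 0.42). Snhg18 (chr15:32240565-32244662, minus strand), whose intron holds Snord123, had 242 and 231 in the knockouts, against 35.1 and 112 in the controls and was 3.22-fold higher (log2 change 1.90 ± 0.54; limma adjusted p = 0.0121). Control 2 lay between the knockouts and control 1, so that the fold of Snhg18 ran from 2.12-fold to 6.75-fold with 1 sample left out. The values are those of the hosts: the small RNAs are processed separately and were not measured here. With size factors recomputed from the listed genes some higher calls were lost: Snhg18 (limma adjusted p = 0.0896 with TMM, 0.199 with RLE), Gm20632 (0.0552 and 0.134) and 3110039I08Rik (0.0544 and 0.252). The call of 4631405K08Rik was lost with RLE (0.0581). The lower calls were kept, but these factors moved all of these hosts down on the log2 scale, so this does not check single genes.

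Across all biotypes, 47 of the 90 genes were higher in the knockouts and 43 were lower at a limma adjusted p under 0.05, and none failed the test. This is close to the background, since 99.8% of all listed genes passed, 61.3% as higher and 38.5% as lower. In each of the 90 the knockouts did not overlap the controls, as in 99.9% of all listed genes. Both figures follow from how the list was selected, and the counts say little about the members. Of the members 52.2% were higher. The median log2 change was 1.21, beside 1.23 over all listed genes and 1.23 over protein_coding rows, but a list with no gene near 0 has its median at the edge of that gap whenever slightly more genes are higher than lower. Changes of at least 2 on the log2 scale in either direction were found in 54.4% of the 90 genes, 24 higher and 25 lower, against 37.8% of all listed genes. The median of the mean normalised counts was 60.4, against 161 over all listed genes, and in 21 of the 90 the lower group held under 10 reads over its 2 samples together.

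The directions are given by biotype as counts, with no test. Of 64 long noncoding genes, 42 were higher (65.6%) and 22 lower, with a median log2 change of 1.50. That share is close to the 61.3% higher over all listed genes, whose median was 1.23. Antisense genes were higher in 9 of 11 cases, processed transcripts in 9 of 13 and lincRNAs in 23 of 38 (60.5%). Of 24 pseudogenes, 5 were higher (20.8%) and 19 lower, with a median log2 change of -1.82. Processed pseudogenes were lower in 9 of 10 cases and transcribed unprocessed pseudogenes in all 7. Both genes annotated as miRNA were lower. Pseudogenes that share a parent are not independent of each other.

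**Figure D2:**
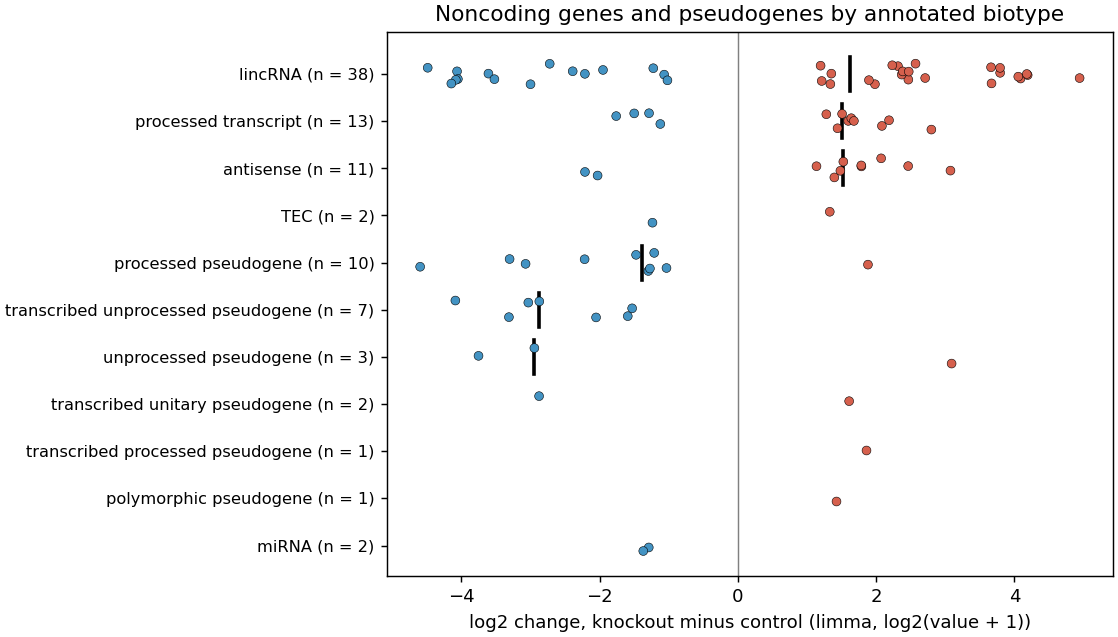
Log2 change of each of the 90 genes (x axis, knockout minus control) by annotated biotype (y axis, number of genes in parentheses), with higher genes in red, lower genes in blue and the median as a black bar where a biotype has over 2 genes. Long noncoding biotypes lie mostly to the right of 0, as do 61.3% of all listed genes, and pseudogenes mostly to the left.

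The number of calls depends on which samples enter, and the split on the scaling. Without knockout 1 or without knockout 2, limma called 0 members in either direction, with 40 and 38 members at an unadjusted p under 0.05. The lone knockout is then assumed to vary like the controls. These fits gave the members a median log2 change of 1.22 and 1.16, close to the 1.21 with all samples. Without control 1 it called 47 higher and 39 lower, and without control 2 it called 47 higher and 36 lower, with a median of 0.82 and 1.44. TMM factors computed from the listed genes gave 22 higher and 43 lower, so that 33.8% of the called members were higher in place of 52.2%, and RLE factors gave 14 higher and 43 lower, or 24.6%. Over all listed genes the same factors gave a median log2 change of 0.49 and 0.14, in place of 1.23. These factors rescale whole samples, so higher and lower genes moved down together. With RLE the log2 change of 1810019D21Rik went from 1.28 to 0.19 and that of Mir17hg from -1.02 to -2.11. Losing higher calls and keeping lower ones under these factors is therefore no check of a single gene. No member changed sign under any setting tried.

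Members that overlap a listed coding gene, or start beside one, moved with it. There were 4 members that overlapped their nearest listed coding gene and 3 that lay within 5 kb of it without overlap, and in all 7 pairs both genes moved the same way. With RLE factors the change of 1 of the 7 coding genes, Tapt1, turned to -0.046 on the log2 scale. The same factors took the median over all listed genes from 1.23 to 0.14. Between 5 and 100 kb the sign was shared in 10 of 15 pairs, and beyond 100 kb in 33 of 68 (48.5%). Over all distances 50 of 90 pairs (55.6%) shared their sign. Protein_coding rows paired with their own nearest listed coding gene showed a like fall with distance: 18 of 18 when overlapping, 84.2% of 38 within 5 kb, 68.9% of 190 from 5 to 100 kb and 57.7% of 796 beyond. Coding genes that are nearest to each other are counted once for each gene, so these rows hold fewer separate pairs. Members that share a neighbour, such as Gm19385 and Gm34425 with Ctnnb1, are likewise counted as separate pairs. The nearest listed gene is often not the nearest gene, which was listed for 17 members only, and 27 members overlapped an annotated coding gene. Neither the kit named in the labels nor the values record strand, so reads of a member and of a coding gene that overlaps it on the other strand cannot be told apart.

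**Figure D3:**
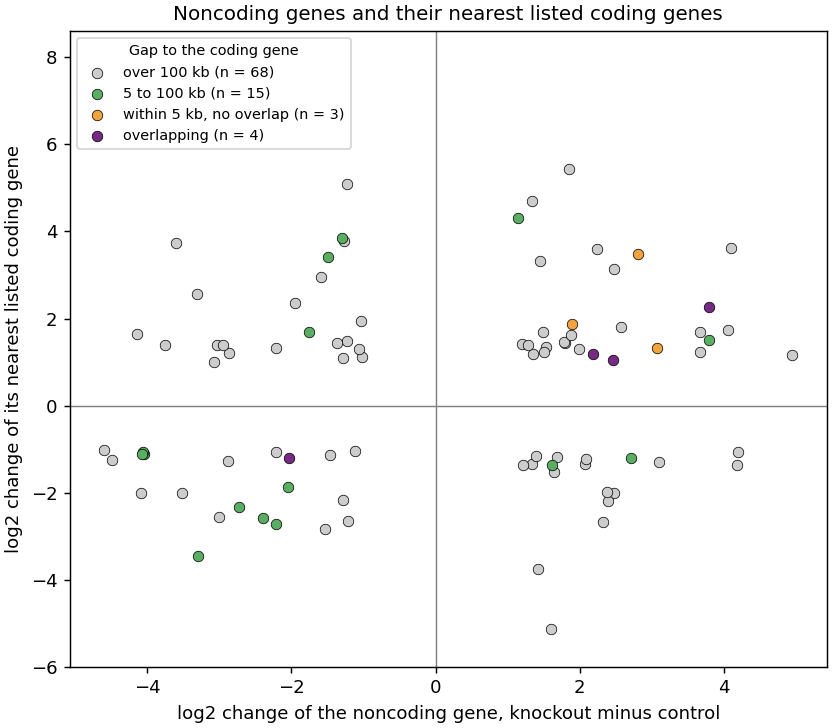
Log2 change of each noncoding gene or pseudogene (x axis, knockout minus control) against that of its nearest listed coding gene (y axis), coloured by the gap between the 2 gene bodies. All 7 pairs that overlap or lie within 5 kb fall in the upper right or lower left quadrant, whereas pairs over 100 kb apart fill all 4 quadrants.

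Back-to-back pairs gave the clearest members of this kind. C130021I20Rik (chr2:33641193-33646354, plus strand) starts beside Lmx1b, a LIM homeobox transcription factor gene of limb, kidney and neuron development. It had 328 and 399 in the knockouts, against 38.1 and 46.3 in the controls, an 8.61-fold higher level (log2 change 3.08 ± 0.38; limma adjusted p = 0.00134). Lmx1b had 295 and 361 in the knockouts, against 161 and 106 in the controls and was 2.46-fold higher (call lost with TMM and RLE, limma adjusted p = 0.208 and 0.706), a smaller fold than that of its antisense partner, although the difference between them was not tested. Snhg18 and Sema5a, which encodes a transmembrane semaphorin, lie 148 bases apart: Sema5a had 382 and 363 in the knockouts, against 72.2 and 140.1 in the controls and was 3.51-fold higher (call lost with RLE, 0.0836), close to the 3.22-fold higher value of Snhg18, and in both genes control 2 was the higher control. Gm14066 overlaps Sptlc3, which was not listed, and lies 464 bases from Ism1, the gene of the secreted protein isthmin 1. Gm14066 had 48.8 and 69 in the knockouts, against 3.01 and 16.9 in the controls and was 5.91-fold higher (3.48-fold to 19.6-fold with 1 sample left out). Ism1 had 612 and 729.6 in the knockouts, against 30.1 and 115 in the controls and was 9.23-fold higher (5.82-fold to 22.3-fold with 1 sample left out). Here too control 2 stood above control 1 in both genes.

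Overlapping pairs shared their direction in either sense. Gm32014, which overlaps 36669 bases of the cation channel gene Trpc6, had 17.2 and 33.6 in the knockouts, against 0 and 2.26 in the controls (rate ratio 23.6, 95% interval 6.24 to 200.3, covering counting error only), beside 90.4 and 101 in the knockouts, against 20.04 and 18.1 in the controls for Trpc6. Gm15663 overlaps 499 bases of Tmtc2, a gene of protein glycosylation in the endoplasmic reticulum. It had 54.2 and 63.3 in the knockouts, against 7.02 and 20.3 in the controls and was 4.30-fold higher (2.89-fold to 8.37-fold with 1 sample left out), while Tmtc2 was 2.22-fold higher. Gm42984 overlaps Tapt1 by 40 bases, with 49.7 and 32.6 in the knockouts, against 4.01 and 10.2 in the controls, and was 5.81-fold higher (4.05-fold to 10.3-fold with 1 sample left out), while Tapt1 was 2.06-fold higher. The only overlapping pair that was lower was Gm10425, which lies in Exoc3l4 over its whole 4073 bases: it had 12.7 and 14.4 in the knockouts, against 85.2 and 39.5 in the controls (4.61-fold lower, or 2.93-fold to 6.30-fold with 1 sample left out). Exoc3l4 had 240.4 and 219.5 in the knockouts, against 748 and 373 in the controls (2.44-fold lower, or 1.62-fold to 3.25-fold). The change of the noncoding partner was the larger in each of these 4 pairs as a point estimate, which was not tested. With both recomputed scalings the higher calls of Gm14066 (limma adjusted p = 0.0544 and 0.0877) and Gm15663 (0.0624 and 0.133) were lost, and with RLE that of Gm42984 (0.0930). Of the coding partners, Tmtc2 (0.178 and 0.828) and Tapt1 (0.252 and 0.901) lost their calls with both and Trpc6 with RLE (0.0616).

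In 3 of these pairs RefSeq places both starts within 1 promoter window of 300 bases around the start, and the stretch between the 2 starts is shown, 5′ to 3′ on the strand of the noncoding gene. Capitals mark GC boxes, the letters GGGCGG on either strand, which are held by 35.7% of 32851 mouse promoter windows of the same 300 bases. The windows of Snhg18, C130021I20Rik and Gm15663 hold 5, 3 and 1. A match of letters is not a binding site. In the shorter stretches between the starts, for which no such share was computed, Snhg18 and Sema5a have all 5 and Gm15663 and Tmtc2 have theirs, whereas the 3 of C130021I20Rik lie outside the 94 bases between it and Lmx1b. The letters TATAAA, found on either strand in 13.6% of the windows, are in none of the 3 windows.
Snhg18 to Sema5a, chr15:32244663-32244812, minus strand: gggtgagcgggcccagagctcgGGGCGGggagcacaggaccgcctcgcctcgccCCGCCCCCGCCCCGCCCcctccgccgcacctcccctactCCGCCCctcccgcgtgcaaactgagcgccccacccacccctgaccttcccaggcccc
C130021I20Rik to Lmx1b, chr2:33641099-33641192, plus strand: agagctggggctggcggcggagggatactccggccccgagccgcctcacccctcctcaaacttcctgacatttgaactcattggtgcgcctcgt
Gm15663 to Tmtc2, chr10:105574480-105574550, plus strand: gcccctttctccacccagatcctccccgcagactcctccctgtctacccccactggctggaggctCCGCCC

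Farther apart, 10 members shared the sign of a coding gene between 5 and 100 kb away. Gm19385 and Gm34425, among the lowest members, lie near Ctnnb1, which encodes beta-catenin, the transcriptional effector of Wnt signalling. Gm19385, 62460 bases away, had 3.61 and 6.71 in the knockouts, against 103 and 92.6 in the controls and was 19-fold lower (log2 change -4.05 ± 0.57; limma adjusted p = 0.00182). Gm34425, 55356 bases away, had 0.904 and 0.959 in the knockouts, against 34.1 and 29.4 in the controls (rate ratio 34.2, 95% interval 9.08 to 289). Ctnnb1 had 11347 and 9918 in the knockouts, against 24099.6 and 21603 in the controls and was 2.15-fold lower, so that all 3 genes were lower, with larger folds in the noncoding ones. 1700047M11Rik, 5186 bases from the sphingolipid desaturase gene Degs1, had 3.61 and 0 in the knockouts, against 29.1 and 41.8 in the controls, while Degs1 was 2.13-fold lower. With 4 reads in knockout 1 and none in knockout 2, 1700047M11Rik was 19.6-fold lower, or 9.80-fold lower without knockout 2, and has no fold without knockout 1. Its call was lost without control 2 (limma adjusted p = 0.0517).

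Further pairs were lower together. Gm34354 had 5.42 and 6.71 in the knockouts, against 52.1 and 39.5 in the controls and was 7.55-fold lower, and its neighbour Ntrk2, the receptor of the neurotrophin BDNF, was 5.01-fold lower. Gm47757 had 9.94 and 18.2 in the knockouts, against 67.1 and 83.6 in the controls and was 5.35-fold lower, and the transcription factor gene Sox14 was 6.59-fold lower (3.20-fold to 10.7-fold with 1 sample left out, and its call was lost without control 2, limma adjusted p = 0.0705). The pseudogene Gm9522 had 3.61 and 2.88 in the knockouts, against 26.1 and 63.3 in the controls and was 13.8-fold lower (8.03-fold to 19.5-fold with 1 sample left out). Its neighbour Rims2, a gene of synaptic vesicle release, was 13.1-fold lower (7.57-fold to 18.7-fold). Dlx4os, antisense to the homeobox gene Dlx4, had 7.23 and 4.79 in the knockouts, against 64.1 and 14.7 in the controls. It was 6.56-fold lower, or 2.44-fold to 10.7-fold with 1 sample left out, its call was lost without control 1 (limma adjusted p = 0.0605), and the neighbouring Dlx3 was 7.06-fold lower.

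Opposite signs were seen in 5 pairs within 100 kb. Ptprv, listed as a processed transcript of a receptor tyrosine phosphatase gene known from bone and testis, had 169.9 and 185 in the knockouts, against 518 and 488 in the controls and was 2.83-fold lower, whereas the neighbouring receptor gene Gpr37l1 was 10.6-fold higher (7.07-fold to 21.3-fold with 1 sample left out). Abhd11os had 202 and 276 in the knockouts, against 65.1 and 90.4 in the controls and was 3.08-fold higher, whereas Stx1a, a syntaxin gene of vesicle fusion, was 2.68-fold lower. Gm12349 had 55.1 and 47 in the knockouts, against 3.01 and 14.7 in the controls and was 5.77-fold higher (3.48-fold to 17-fold with 1 sample left out), and Krt14, the basal keratin gene, was 2.38-fold lower. With TMM and RLE scaling the higher calls of Abhd11os (limma adjusted p = 0.0550 and 0.220) and Gm12349 (0.0522 and 0.0882) were lost. The other two pairs, C4a with C4b and Gm5559 with Cxcl13, concern genes with near-identical copies and are described with the pseudogenes.

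The largest rises were those of 9 lincRNAs and 1 pseudogene that were almost silent in the controls. 9530014B07Rik, at chr13:53635894-53639193, had 66.9 and 122 in the knockouts, against 1 and 3.39 in the controls and was 43-fold higher (log2 change 4.94 ± 0.70; limma adjusted p = 0.00182), or 27.8-fold to 94.1-fold with 1 sample left out. Its nearest coding gene, the homeobox gene Msx2, 162820 bases away, was 2.30-fold higher, a call that was lost with TMM and RLE (limma adjusted p = 0.299 and 0.909) and without either control (0.0708 and 0.0649). Gm26865 had 39.8 and 69 in the knockouts, against 3.01 and 1.13 in the controls and was 26.3-fold higher (18.1-fold to 48.1-fold with 1 sample left out). Gm13219, whose nearest coding gene is the luminal regulator Gata3, 409402 bases away and not listed, had 122 and 94 in the knockouts, against 3.01 and 9.04 in the controls and was 17.9-fold higher (11.9-fold to 35.9-fold with 1 sample left out). Tbx3os2 lies 371 bases from Tbx3, a T-box gene needed for the mammary placode that was not listed. It had 35.2 and 48.9 in the knockouts, against 1 and 2.26 in the controls (rate ratio 26.3, 95% interval 8.71 to 129.8; limma adjusted p = 0.00347).

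The remaining 5 lincRNAs had at most 2 reads in a control sample, so that their ratios are loosely bounded. Gm4961 had 23.5 and 25.9 in the knockouts, against 1 and 0 in the controls (rate ratio 46.4, 95% interval 7.98 to 1868). Gm33424 had 26.2 and 22.1 in the knockouts, against 0 and 2.26 in the controls (rate ratio 22.8, 95% interval 6 to 193), and its neighbour Ror2, a receptor for Wnt5a, was 2.89-fold higher (call lost with TMM and RLE, limma adjusted p = 0.115 and 0.416). Gm37068 had 23.5 and 42.2 in the knockouts, against 1 and 2.26 in the controls (rate ratio 20.4, 95% interval 6.71 to 101), and Gm10032 had 20.8 and 23 in the knockouts, against 0 and 2.26 in the controls (rate ratio 20.6, 95% interval 5.39 to 175). Gm32014 was described with Trpc6. The pseudogene Tmem181c-ps had 41.6 and 44.1 in the knockouts, against 5.01 and 3.39 in the controls and was 10.2-fold higher (log2 change 3.09 ± 0.64), and its longest transcript is 98.8% identical over 781 bases to the coding gene Tmem181a, which was not listed. All 10 calls held under TMM and RLE scaling and without either control.

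**Figure D4:**
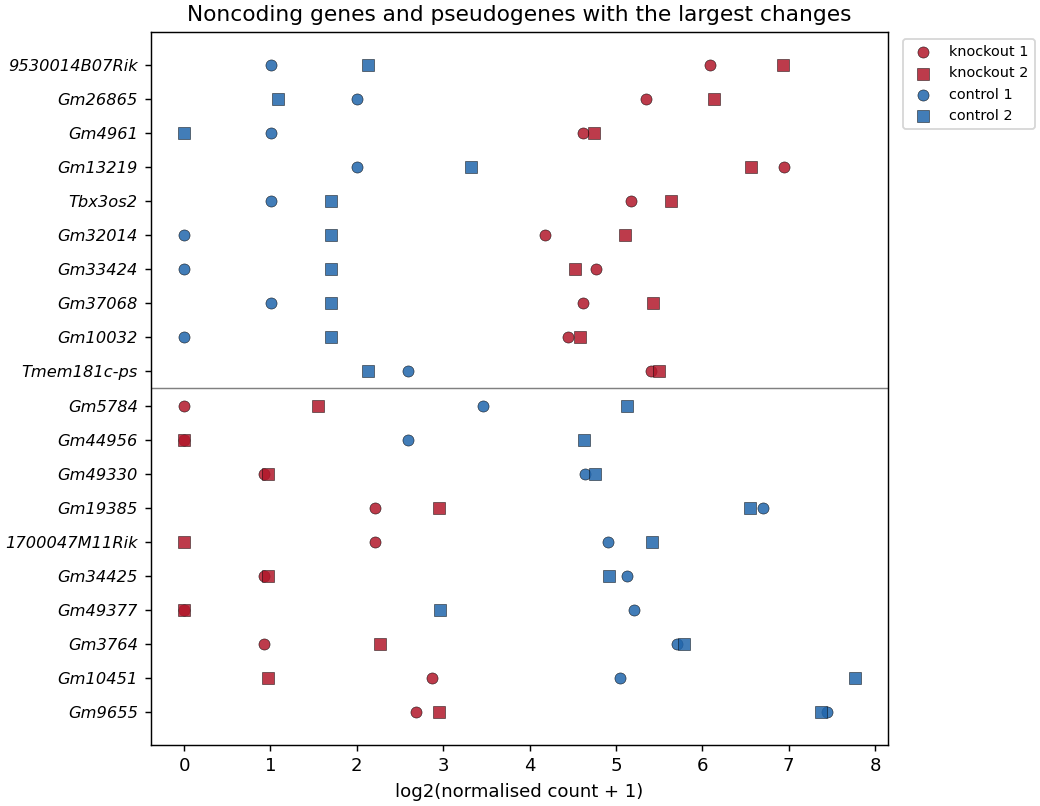
Normalised counts, as log2(value + 1) on the x axis, of the 10 members with the largest rise (upper block) and the 10 with the largest fall (lower block) in each knockout (red) and control (blue) sample. In every row both knockouts lie on 1 side of both controls, and Gm44956 and Gm49377 stand at 0 in both knockouts.

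The largest falls took in transcripts that were near 0 in the knockouts. By log2 change the processed pseudogene Gm9655 (chr8:82747616-82757987, plus strand) fell most, with 5.42 and 6.71 in the knockouts, against 173 and 165 in the controls. It was 27.9-fold lower (log2 change -4.60 ± 0.50; limma adjusted p = 0.00110). By the fold of group means Gm10451 (34.2-fold) and Gm34425 (34.1-fold) fell further. Gm10451 had 6.33 and 0.959 in the knockouts, against 32.1 and 217 in the controls, a 34.2-fold lower level that rested on control 2: it ran from 8.81-fold to 129.9-fold with 1 sample left out, and the call was lost without control 2 (limma adjusted p = 0.0588). Gm44956, near Irs2, had no read in either knockout, against 5.01 and 23.7 in the controls, which is at least 10.3-fold lower if a floor of 3 reads is set for the 2 samples together. Gm49377 likewise had no read in either knockout, against 36.1 and 6.78 in the controls, at least 15.4-fold lower. Gm3764, Gm19385, Gm34425 and 1700047M11Rik complete the set with Gm5784 and Gm49330. Zfp469, the symbol of a zinc finger gene that is listed here as a lincRNA, was more abundant, with 99.4 and 66.2 in the knockouts, against 753 and 571 in the controls, and was 7.99-fold lower (log2 change -2.999 ± 0.37; limma adjusted p = 0.00134).

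Several of the lowest members were neighbours on chromosome 12. All 7 members on that chromosome were lower, whereas 19 of its 40 listed genes were higher. In the stretch chr12:17900734-22587635 the 5 members Gm49329, Gm49330, Gm49328, Gm5784 and Gm49377 and the single listed coding gene, 5730507C01Rik, were all lower. Gm49329 had 11.7 and 6.71 in the knockouts, against 87.2 and 73.4 in the controls, and Gm49328, which lies inside it, had 3.61 and 0.959 in the knockouts, against 24.1 and 20.3 in the controls. Gm49328 was 9.71-fold lower, or 6.14-fold to 23.1-fold with 1 sample left out. Gm49330, a 126-base pseudogene also inside it, had 0.904 and 0.959 in the knockouts, against 24.1 and 26 in the controls (rate ratio 26.8, 95% interval 7.03 to 228). Gm5784 had 0 and 1.92 in the knockouts, against 10.02 and 33.9 in the controls (rate ratio 22.8, 95% interval 5.92 to 195), and its call was lost without control 2 (limma adjusted p = 0.0520). 5730507C01Rik had 23.5 and 18.2 in the knockouts, against 101 and 73.4 in the controls and was 4.19-fold lower. On the near side of the stretch Hpcal1, a calcium sensor gene 108801 bases from Gm49329, had 702 and 726 in the knockouts, against 258 and 282 in the controls and was 2.64-fold higher (call lost with TMM and RLE, limma adjusted p = 0.0562 and 0.378). Each of the 5 members has a copy of over 90% identity elsewhere, and Gm49328 and Gm49330 lie inside Gm49329, so they are not 5 independent measurements.

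Among members with familiar names, Jpx (chrX:103493558-103506425, plus strand), a noncoding activator of Xist that lies in the X inactivation centre, had 95.8 and 93 in the knockouts, against 35.1 and 38.4 in the controls and was 2.57-fold higher (log2 change 1.34 ± 0.43; limma adjusted p = 0.0160). It was the single listed gene of 27 nuclear and tumour lncRNAs looked up, and its call was lost with TMM and RLE scaling (limma adjusted p = 0.170 and 0.616). Junos, antisense to the immediate early gene Jun, had 185 and 164 in the knockouts, against 51.1 and 48.6 in the controls and was 3.50-fold higher, with the call lost under RLE scaling (0.163). Mirt1, a transcript named for its rise after myocardial infarction in mice, had 20.8 and 18.2 in the knockouts, against 122 and 49.7 in the controls and was 4.41-fold lower, or 2.55-fold to 6.27-fold with 1 sample left out. None of 10 imprinted noncoding genes, 9 abundant small RNAs, 7 mitochondrial RNA genes and 6 muscle lncRNAs looked up was listed.

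AW112010 and Clec7a, both known from immune cells, were higher. AW112010 (chr19:11047617-11050566, minus strand), a transcript known to be induced in macrophages and T cells by inflammatory signals, had 1353 and 1982 in the knockouts, against 335 and 321 in the controls and was 5.09-fold higher (log2 change 2.32 ± 0.33; limma adjusted p = 0.00182). Clec7a, which encodes the beta-glucan receptor dectin-1 of macrophages and is annotated as a polymorphic pseudogene, had 307 and 344 in the knockouts, against 111 and 132 in the controls and was 2.68-fold higher. The call of Clec7a was lost with TMM and RLE scaling (limma adjusted p = 0.0697 and 0.389). The summed macrophage markers given above were higher in the same samples, with Csf1r at 1362 and 1487 in the knockouts, against 452 and 748 in the controls. The call of Csf1r was also lost with TMM and RLE scaling (limma adjusted p = 0.110 and 0.556), as were those of Adgre1, C1qa, C1qc and Mrc1. That of Apoe was lost with RLE only (0.0832). With RLE the log2 changes of C1qa and C1qc turned to -0.043 and -0.074, while the median over all listed genes went from 1.23 to 0.14. This shift is common to the list and is not particular to these markers. The part of macrophage number in the values of AW112010 and Clec7a was not tested. C530043A13Rik, with 2169 and 2369.95 in the knockouts, against 356 and 921 in the controls, was the most abundant member that was higher, 3.56-fold higher. Its fold ran from 2.46-fold to 6.38-fold with 1 sample left out, and its call was lost with RLE scaling (0.0800).

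Of the 90 genes, 21 had at least 1 near-identical copy elsewhere, counted as 90% identity over at least 50% of the longest transcript, and 17 of these were pseudogenes. Of the 21, 18 were lower and 3 higher, beside 38.5% lower and 61.3% higher over all listed genes. The counting tool and its treatment of reads that match several places were not found in the labels or file headers, so how reads were divided among copies is uncertain for each of them. A parent gene of a copy was listed in only 2 cases, Etv1 and C4b, and the 2 pairs behaved differently.

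**Figure D5:**
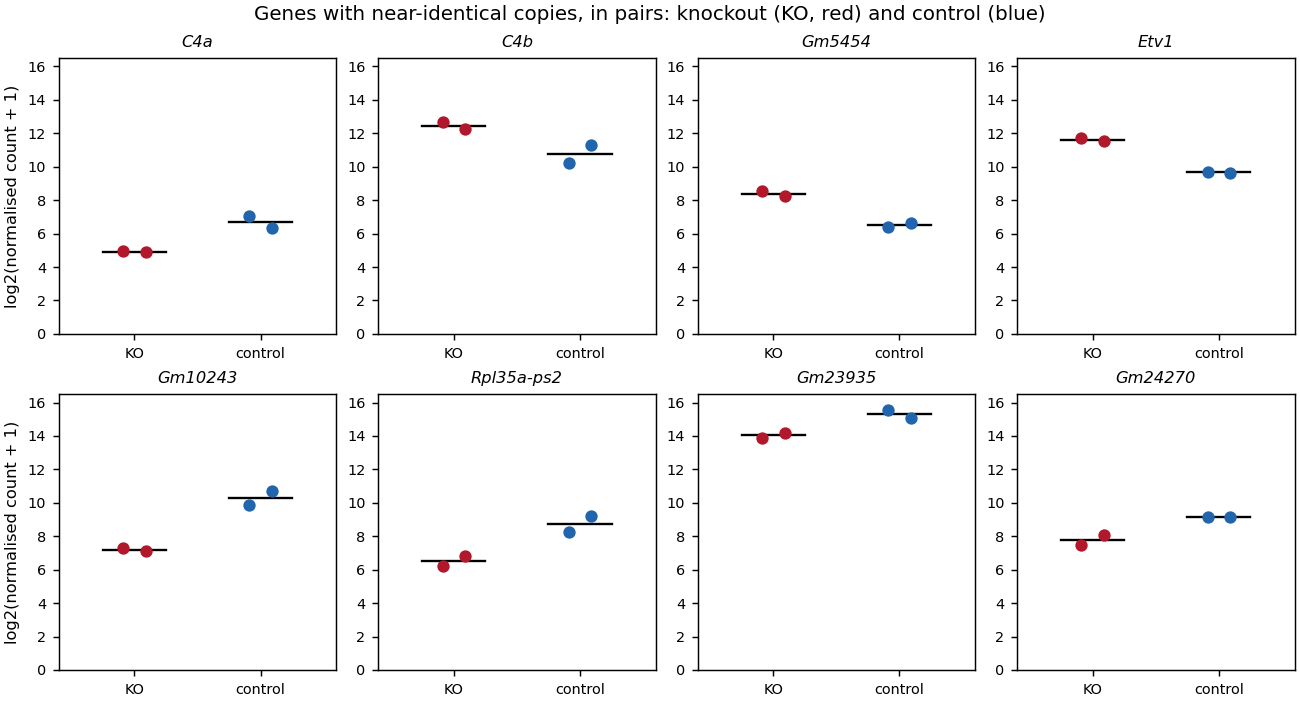
Normalised counts, as log2(value + 1), of 4 pairs of genes that are near-identical copies or share a parent, in the 2 knockout samples (left, red) and the 2 control samples (right, blue), with the mean as a bar. C4a lies lower in the knockouts while C4b lies higher, whereas Gm5454 with Etv1, Gm10243 with Rpl35a-ps2, and Gm23935 with Gm24270 move together.

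C4a (chr17:34809092-34823464, minus strand), the gene of the sex-limited form of complement C4, which lacks the haemolytic activity of C4b, had 29.8 and 28.8 in the knockouts, against 130.3 and 79.1 in the controls and was 3.57-fold lower (log2 change -1.76 ± 0.47; limma adjusted p = 0.00994). C4b, the functional complement gene, had 6435 and 4854 in the knockouts, against 1178 and 2517 in the controls and was 3.06-fold higher (log2 change 1.70 ± 0.42; limma adjusted p = 0.00819). The groups were apart in both genes and in opposite directions, although the 2 transcripts are 96.0% identical over 5378 aligned bases. The higher call of C4b was lost with TMM and RLE scaling (limma adjusted p = 0.0622 and 0.180), and its fold ran from 2.24-fold to 4.79-fold with 1 sample left out. The processed pseudogene Gm5454 had 367 and 308 in the knockouts, against 82.2 and 99.4 in the controls and was 3.71-fold higher (log2 change 1.88 ± 0.36; limma adjusted p = 0.00400), with the call lost under RLE scaling (0.0725). Its parent Etv1, an ETS transcription factor gene, had 3324 and 2986 in the knockouts, against 837 and 781 in the controls and was 3.90-fold higher. The fold was nearly the same in parent and copy, and the level of Gm5454 was a small part of that of Etv1 in every sample. The 60-base stretches below were chosen as those with the most differing bases, without gaps, in coding sequence of the parent. They show the largest and not the typical difference that a read can meet. Differing bases are in capitals.
C4a: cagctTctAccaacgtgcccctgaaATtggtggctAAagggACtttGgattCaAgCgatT
C4b: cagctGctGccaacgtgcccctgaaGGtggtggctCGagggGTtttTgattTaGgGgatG
Gm5454: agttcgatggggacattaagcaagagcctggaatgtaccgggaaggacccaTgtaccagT
Etv1: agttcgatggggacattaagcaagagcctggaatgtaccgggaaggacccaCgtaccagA
In this stretch C4a and C4b differ at 13 bases and Gm5454 and Etv1 at 2, and over the whole alignments they differ at 217 and 26 bases.

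Of the 9 processed pseudogenes that were lower, 5 copy genes of ribosomal proteins and 2 copy Gapdh. Gm10243 had 156 and 136 in the knockouts, against 918 and 1655 in the controls and was 8.80-fold lower (log2 change -3.07 ± 0.38; limma adjusted p = 0.00134), and Rpl35a-ps2 had 72.3 and 113 in the knockouts, against 308 and 584 in the controls and was 4.81-fold lower (log2 change -2.22 ± 0.43). Both copy Rpl35a, a protein of the large ribosomal subunit, from which each differs at 1 of 333 bases, and Rpl35a itself was not listed. Control 2 was above control 1 in both copies. Gm12191 and Rpl30-ps10 copy Rpl30 at 99.7% and 99.1% identity. Gm12191 had 271 and 241 in the knockouts, against 355 and 772 in the controls and was 2.20-fold lower (1.39-fold to 3.02-fold with 1 sample left out). Rpl30-ps10 had 173 and 106 in the knockouts, against 268 and 533 in the controls. Both calls were lost without control 2 (limma adjusted p = 0.0792 and 0.0963). Gm8451, a copy of Rpl27a at 99.1%, had 62.3 and 77.7 in the knockouts, against 132 and 217 in the controls and was 2.49-fold lower, with the call lost without control 2 (0.0555).

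Gm7336 and Gm5559 copy Gapdh, the glycolytic dehydrogenase, at 99.8% and 99.9% identity. Gm7336 had 131 and 114 in the knockouts, against 379.8 and 212 in the controls and was 2.42-fold lower. Gm5559 had 56 and 70.9 in the knockouts, against 178 and 137 in the controls and was 2.48-fold lower, whereas the chemokine gene Cxcl13, 94236 bases away, was 11.6-fold higher (6.22-fold to 84.1-fold with 1 sample left out). At 90% identity or more, Gm5559 matched 155 other annotated genes and Gm7336 matched 156. Gm9655, the pseudogene with the lowest log2 change, is farther from its parent: it matches Hspd1, the gene of the mitochondrial chaperonin Hsp60, at 91.7% over 1229 bases. The stretches below, again those with the most differing bases, show the contrast between a copy with many differences and one with a single difference, in capitals.
Gm9655: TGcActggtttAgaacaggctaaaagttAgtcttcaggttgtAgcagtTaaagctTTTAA
Hspd1: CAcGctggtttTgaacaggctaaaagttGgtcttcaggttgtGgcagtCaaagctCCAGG
Gm10243: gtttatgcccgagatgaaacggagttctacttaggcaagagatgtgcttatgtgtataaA
Rpl35a: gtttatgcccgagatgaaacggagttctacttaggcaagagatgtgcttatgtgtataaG
Gm9655 and Hspd1 differ at 12 of these 60 bases and at 102 over the alignment, whereas Gm10243 and Rpl35a differ at 1 base in both.

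Other pseudogenes changed with no listed relative. Rps4l, a ribosomal protein S4-like gene, had 84 and 97.8 in the knockouts, against 14 and 41.8 in the controls and was 3.26-fold higher (2.17-fold to 6.48-fold with 1 sample left out), with the call lost under TMM and RLE scaling (limma adjusted p = 0.106 and 0.245). Alms1-ps2, a 99.0% match to the ciliary gene Alms1, had 9.04 and 10.5 in the knockouts, against 62.1 and 30.5 in the controls and was 4.73-fold lower (3.12-fold to 6.35-fold with 1 sample left out). The neighbouring acetyltransferase gene Nat8 was 3.75-fold lower. Itih5l-ps had 0.904 and 3.83 in the knockouts, against 34.1 and 24.9 in the controls and was 12.4-fold lower (7.68-fold to 32.6-fold with 1 sample left out). Olfr1372-ps1, an olfactory receptor pseudogene, had 27.1 and 31.6 in the knockouts, against 118 and 68.9 in the controls and was 3.19-fold lower.

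The reads of the 90 genes were dominated by 1 of them. Gm23935, a 57-base gene annotated as miRNA and placed in the list of ribosomal RNA-like genes, had 15326 and 18399.7 in the knockouts, against 48934 and 34385 in the controls. It was 2.47-fold lower (log2 change -1.29 ± 0.39; limma adjusted p = 0.0135). It took 55.0% and 57.3% of all member reads in the knockouts, against 82.5% and 73.1% in the controls. The second gene annotated as miRNA, Gm24270, had 179 and 265 in the knockouts, against 560.2 and 566 in the controls and was 2.54-fold lower (log2 change -1.37 ± 0.34; limma adjusted p = 0.00869). Gm23935, at chr16:11144125-11144181 on the plus strand, and Gm24270, at chr9:56223715-56223771 on the minus strand, have the same letters, as has a further gene, Gm24245.
Gm23935 and Gm24270: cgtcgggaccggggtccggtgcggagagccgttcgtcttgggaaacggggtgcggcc
Identical genes cannot be told apart by reads within them, yet the ratio of Gm23935 to Gm24270 was 85.7 and 69.5 in the knockouts, against 87.4 and 60.8 in the controls. The ratio overlapped between the groups. The 90 genes together held 4.44% and 4.80% of the listed reads in the knockouts, against 11.6% and 9.09% in the controls. Their summed normalised counts were 27854 and 32113 in the knockouts, against 59348 and 47047 in the controls. Without Gm23935 the sums were 12528 and 13713 in the knockouts, against 10414 and 12662 in the controls. With Gm23935 both knockouts were below both controls, and without it the groups overlapped.

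Letters that pair with the miR-9 seed were counted in the longest transcript of each member. The searched word was ACCAAAG, the complement of bases 2 to 8 of miR-9-5p, on the transcribed strand. It was found in 8 of 47 higher members (17.0%), in 11 of 42 lower members with an annotated transcript (26.2%), and in 12.1% of all mouse genes of the same biotypes. Per kilobase there were 0.0972 matches in the higher members, 0.125 in the lower members and 0.126 over all those genes. The longest transcripts had a median length of 1861 bases in the higher members and 1738.5 in the lower members, against 696 over all those genes. Among the higher members with a match were AW112010, Snhg18, 9530014B07Rik, Gm26865, Gm13219 and Gm4961, of which Gm4961 had 2. A match of 7 letters is a description and not a target site.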

How the data were processed

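RNA-seq tables of 4 tumour samples were assigned to knockout or control by their labelled genotype. Total RNA went into an Illumina TruSeq RNA kit, per the labels' protocols. Bowtie 0.12.2 and the builds GRCm38, mm10 and hg38 are named, with no role for each, per the submitters' processing notes. The aligner's settings, counting tool, strand setting and selection rule are not recorded in the labels or headers used here.

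The deposited signal values are gene read counts that the authors divided by 1 size factor per sample. Dividing by the smallest value above 0 in a sample gave whole reads for 100% of values, to within 1e-06 reads. Deposited gene lengths were not used in any test. Intervals (exact Clopper-Pearson, 95%) and the floor of 3 reads over a group cover counting error only.

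The test was limma 3.58.1 (R 4.3.3) on log2(value + 1), with a trend. It had 2 residual degrees of freedom, and p-values were adjusted by Benjamini-Hochberg over all 1142 genes, at a threshold of 0.05. A minimum mean of 0.5 removed 0 genes. Normalised values took the limma form of the planned test. Log2 changes understate the change of low genes. SE stands for the standard error, and folds are ratios of group means. edgeR 4.0.16 and DESeq2 1.42.0, run on the recovered reads, called 1142 and 1141 of the 1142 genes. The script was tested on simulated data. Replicates were not duplicates: chi-square per degree of freedom came to 14.5 for the knockouts and 53.7 for the controls.

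Positions and transcripts came from GENCODE M21 (GRCm38), in which 89 of the 90 genes were found, 85 with identical coordinates. Copies were found with BLAST 2.17.0. Sequences of miRNAs and promoters came from RefSeq (GRCm38.p6), with a promoter for 43 of the 90 genes by symbol. Tables and figures used Python 3.11.15.

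Genes named by rule (44) were the 10 largest changes in each direction with groups that did not overlap and a higher group mean of 10 or more, members of the fixed lists, members with a full symbol, and members within 5 kb of a listed coding gene. The other members were named after their values were seen. The genes, lists and rules were chosen with earlier results of these data known.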

Additional observations from a re-analysis of the deposited data

How the results depend on the processing

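No named gene changed sign in any setting. A pseudocount of 0.1 or 5, no filter, a minimum mean of 5, edgeR and DESeq2 all left 47 members called higher and 43 lower. At a threshold of 0.01 there were 26 higher and 21 lower, in place of 47 and 43. TMM factors from the listed genes gave 22 higher with a median log2 change of 0.47, and RLE factors 14 higher with a median of 0.12, in place of 47 and 1.21. All 43 lower calls were kept under both. Both sets of factors moved higher and lower genes down together, so this does not check single genes. Why they differ from the authors' factors was not tested. With 1 sample left out, members called higher ran from 0 to 47, those called lower from 0 to 39 and the median from 0.82 to 1.44. Leaving out either knockout gave the 0, and the cause was not tested. Folds moved over 1.5 times in 42 of 90 members. Members with the sign of their neighbour were 17 when only pairs within 100 kb were counted and 4 when only overlapping pairs were, in place of 50, since those counts hold fewer pairs.

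The titles number both groups 1 and 2. With the replicate number as a block, limma called 47 higher and 43 lower and 1142 of 1142 genes. Deviations of same-numbered samples correlated at 0.0429 across genes. With 2 samples per group both pairs must give the same value, so this is 1 check. The labels do not say that a number marks shared origin, and whether same-numbered samples share more than a number is not known. Depth limits the members with under 10 reads in the lower group, 21 in all, whose ratios have wide intervals.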
